A study of Arabidopsis with 12 samples.

Results

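This set is made of 76 probe sets, of 22746 on the arrays, whose signal was lower after methyl jasmonate (MeJA) than after mock treatment in all 3 genotypes of the study. A probe set was taken when the mean log2 value with MeJA lay at least 0.6 below the mock mean, and both MeJA arrays lay below both mock arrays, in Col-0, in coi1-2 and in ein3 eil1. The MeJA minus mock values therefore chose the members, and they are given as a description, with no test. Of 79 probe sets that met these conditions, 3 were left out because their symbol starts with EXP, EXL or XTH (EXLA2, EXPA4 and XTH19, cell wall loosening and remodelling genes). Of the 76, 35 belonged to 1 gene each, all different, and 41 had no gene name in the annotation used here. Of the 35 named members, 31 are known by locus code only and 4 have a symbol, namely PRX52, PDF1.4, ALDH3F1 and GH3.17. An expansin or XTH gene without a symbol would not have been left out.

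The seedlings were 7 days old, grown whole on MS medium in long days at 23 °C, and all in the Columbia background of Arabidopsis. They were treated for 4 h with 100 µM MeJA or with ethanol as mock. Col-0 is the wild type, coi1-2 carries a mutation in COI1, and ein3 eil1 is mutated in both EIN3 and EIL1. Every genotype and treatment had 2 Affymetrix ATH1 arrays, so that 6 groups and 12 arrays were compared, as log2 RMA levels. The labels do not say that replicates were separate cultures, so a p-value rests on the spread between these arrays alone, and that spread may be technical.

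Jasmonate signalling works through COI1, an F-box protein and part of the hormone's receptor, which binds jasmonate's amino acid conjugate and marks JAZ repressors for destruction. EIN3 and EIL1 are transcription factors in which ethylene signalling ends, and JAZ proteins are known to repress them, which links both hormones. Jasmonates are known to slow seedling growth while turning on defence. The allele coi1-2 is known as a weak one that keeps some receptor function. Whether a response seen in it needs COI1 was not tested.

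EIN3 matched the labels: its level was between 9.26 and 9.59 in the 8 arrays of Col-0 and coi1-2 and between 5.91 and 6.25 in the 4 of ein3 eil1. COI1 and EIL1 were not analysed here. Over the 76 members the replicate arrays of a group correlated at 0.9553 to 0.987, a correlation across probe sets, which are not independent. The SD of the difference between replicates was largest in ein3 eil1 MeJA (0.419) and Col-0 MeJA (0.407), and lay between 0.253 and 0.37 in the other 4 groups. Of the 76 members, 73 had a mean level above the median of all probe sets (5.31), and the members' own median was 6.87. A group mean fell below the median of its arrays in 25 members and below the lower quartile in 0. The size of the difference is less certain in those 25.

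The median MeJA minus mock difference over the members was −1.13 in Col-0, −0.85 in coi1-2 and −1.07 in ein3 eil1 (log2), against −0.03, −0.00 and 0.01 over all probe sets. The members ranged from −2.81 to −0.61 in Col-0, from −1.94 to −0.60 in coi1-2 and from −2.61 to −0.61 in ein3 eil1. At least a 2-fold lower level was seen for 44 members in Col-0, 22 in coi1-2 and 44 in ein3 eil1, and for 10 in all 3. At least a 4-fold lower level was seen for 7, 0 and 5 members. The lowest of a member's 3 differences was in ein3 eil1 for 34 members, in Col-0 for 31 and in coi1-2 for 11. In coi1-2, by contrast, 42 members had their smallest difference. The conditions were met by 653 probe sets in Col-0 (2.87% of all), 391 in coi1-2 (1.72%) and 750 in ein3 eil1 (3.3%). Since the members were chosen on these values, nothing is read from those shares.

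**Figure D1:**
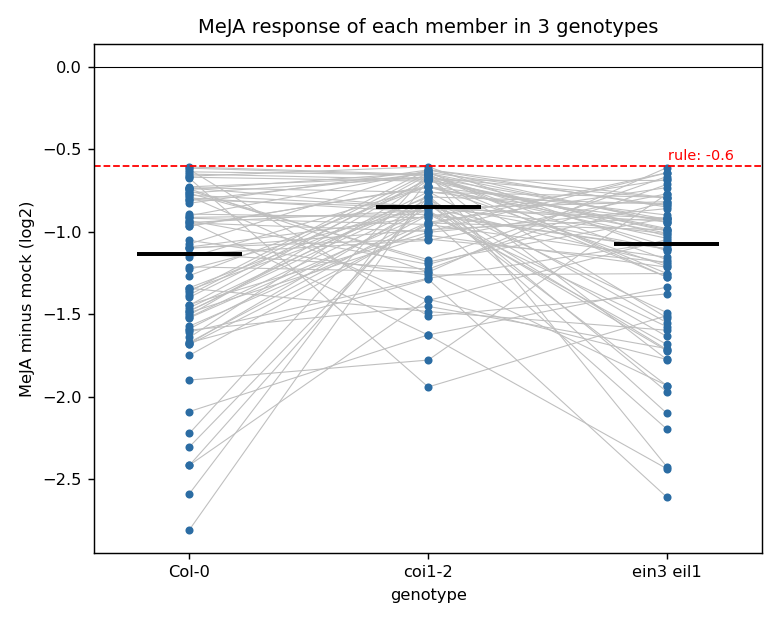
MeJA minus mock difference (log2, vertical axis) of the 76 members in each genotype (horizontal axis). Each point is a probe set, grey lines join the same probe set, black bars are medians (−1.13, −0.85 and −1.07), and the dashed line marks the −0.6 that every member had to reach.

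**Figure D2:**
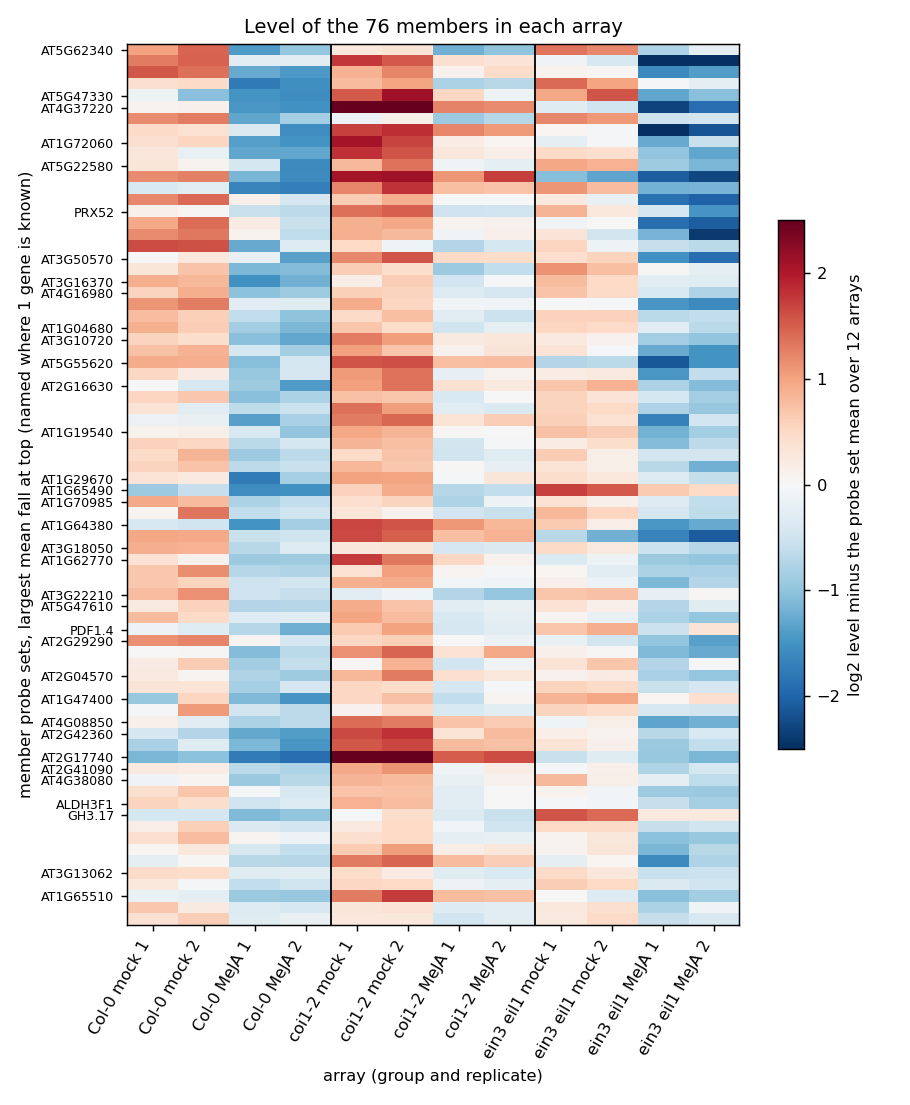
Log2 level of each member (rows, largest mean decrease at the top) in each of the 12 arrays (columns), minus that probe set's mean over all arrays, with the 35 named members labelled. Mock columns are redder than MeJA columns within each genotype, as the choice of members requires, and the coi1-2 columns are redder than those of the other genotypes for many rows.

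Proteins of the cell wall made up the largest group of named members, 10 of 35. The share of wall genes, or of the other role groups below, among all named probe sets was not counted. The sorting of named members into groups by their known role, here and below, was made after their values had been seen, from general knowledge of these loci, and describes this set only. Pectin is the gel-like polymer of the primary wall. Its stiffness is set by pectin methylesterases, by inhibitors of these enzymes and by pectate lyases. AT5G62340, of the family of pectin methylesterase and invertase inhibitors, had the lowest mean difference of all 76 members. Its levels were 7.44 and 7.88 in the mock arrays of Col-0 and 5.02 and 5.47 with MeJA, then 6.69 and 6.77 then 5.23 and 5.42 in coi1-2, and at 7.76 and 7.64 then 5.66 and 6.18 in ein3 eil1. The differences were −2.42, −1.41 and −1.77 (limma SE 0.20, n = 2 arrays per group), or 5.34-fold, 2.65-fold and 3.42-fold lower. This SE, like every SE below, comes from a spread that limma pooled over all groups and moderated. It is therefore the same for each genotype of a gene, and can understate the spread where the 2 arrays of a group are far apart. No MeJA array of any genotype reached a mock array of any genotype.

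AT3G10720, a pectin methylesterase gene, was at 7.77 and 7.67 then 6.18 and 5.92 in Col-0, 8.49 and 8.26 then 7.45 and 7.5 in coi1-2, and 7.47 and 7.33 then 6.36 and 6.23 in ein3 eil1. Its differences were −1.67, −0.90 and −1.10 (SE 0.14). Here the coi1-2 MeJA arrays lay at the level of the ein3 eil1 mock arrays. The pectate lyase-like gene AT1G04680 differed by −1.75, −0.95 and −0.99 (SE 0.17), with mock arrays between 6.31 and 6.73 and MeJA arrays between 4.73 and 5.60. AT1G62770, of the same inhibitor family as AT5G62340, differed by −1.13, −1.23 and −0.71 (SE 0.18). All 4 genes of these pectin-linked families were lower with MeJA in every genotype, as the rule required of every member. The genotype with the largest difference was Col-0 for 3 of them and coi1-2 for AT1G62770.

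Structural wall proteins rich in hydroxyproline carry sugar chains and are cross-linked into the wall or anchored at the plasma membrane. AT4G16980, of the arabinogalactan protein family, was among the brightest named members. In Col-0 it read 10.63 and 10.97 under mock treatment and 9.05 and 9.18 with MeJA. In coi1-2 it was at 10.65 and 10.62 then 9.72 and 9.65, and in ein3 eil1 at 10.78 and 10.54 then 9.69 and 9.32. Its mock arrays lay close together whatever the genotype, all above every MeJA array, and its differences were −1.68, −0.96 and −1.15 (SE 0.16). A second probe set of this gene had −0.60, −0.51 and −0.16 and did not meet the rule, so the 2 probe sets disagree in size. AT3G50570, of the hydroxyproline-rich glycoproteins, differed by −0.89, −0.91 and −2.20 (SE 0.29). Its Col-0 MeJA arrays, 6.5 and 5.34, were far apart, and the spread of its 3 differences, 1.31, was among the 3 widest of named members. AT1G70985 and AT4G38080, of the same broad family, differed by −1.57, −0.94 and −0.73 and by −0.80, −0.85 and −0.92. AT2G16630, an extensin-like protein with an Ole e 1 domain, differed by −0.94, −0.87 and −1.72 (SE 0.20).

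PRX52 encodes a class III peroxidase known for lignin formation. It was at 6.64 and 6.55 then 5.97 and 5.87 in Col-0, at 7.89 and 8.0 then 6.0 and 6.01 in coi1-2, and at 7.36 and 6.77 then 6.07 and 5.04 in ein3 eil1. Its differences were −0.68, −1.94 and −1.51 (SE 0.26). With MeJA the Col-0 and coi1-2 arrays were close to each other, while under mock the coi1-2 arrays were the highest and the Col-0 arrays the lowest.

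GDSL esterase/lipases are secreted enzymes that act on lipids and wall esters, and 3 named members belong to this family. AT3G16370 was at 10.42 and 10.33 then 7.99 and 8.31 in Col-0, at 9.66 and 10.10 then 9.02 and 9.45 in coi1-2, and at 10.3 and 10 then 9.21 and 9.20 in ein3 eil1. Its differences were −2.22, −0.64 and −0.94 (SE 0.19), or 4.67-fold, 1.56-fold and 1.92-fold lower, and the spread between them, 1.58, was the widest of all named members. Both Col-0 MeJA arrays lay below every other array. AT1G29670 differed by −1.59, −0.86 and −0.82 (SE 0.23) from mock levels of 10.65 to 11.41. AT2G04570 was more even, at −0.97, −0.72 and −1.04 (SE 0.16).

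Genes of signalling and defence made up 7 of the named members. AT2G17740, with a C1 domain rich in cysteine and histidine, was at 5.68 and 5.80 then 5.08 and 4.92 in Col-0, 9.50 and 9.78 then 8.35 and 8.45 in coi1-2, and 6.26 and 6.53 then 5.88 and 5.69 in ein3 eil1. Its differences were −0.74, −1.24 and −0.61 (SE 0.15), and all 4 coi1-2 arrays lay above the 8 others. PDF1.4, a defensin-like gene, was at 8.48 and 8.31 then 7.90 and 7.39 in Col-0, 9.27 and 9.61 then 8.19 and 8.32 in coi1-2, and 9.31 and 9.53 then 8.06 and 8.94 in ein3 eil1, with differences of −0.75, −1.18 and −0.92 (SE 0.25). AT4G08850, a leucine-rich repeat receptor kinase, differed by −0.65, −0.68 and −1.27 (SE 0.15). The AP2/ERF family transcription factor gene AT1G64380 differed by −0.73, −0.67 and −1.77 (SE 0.21). AT2G42360 and AT5G47610, RING-type ubiquitin ligase-like genes, differed by −0.77, −1.17 and −0.66 and by −1.14, −1.05 and −0.77. The calmodulin-like gene AT2G41090 differed by −0.95, −1.0 and −0.64.

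Among 5 members with known enzyme roles, GH3.17 encodes an enzyme that joins auxin to an amino acid and so inactivates it. It was at 6.20 and 6.22 then 5.54 and 5.67 in Col-0, 6.60 and 7.08 then 6.30 and 6.08 in coi1-2, and 8.21 and 8.06 then 6.88 and 6.89 in ein3 eil1. Its differences were −0.61, −0.65 and −1.25 (SE 0.16). Even with MeJA, the ein3 eil1 arrays were above both Col-0 mock arrays. ALDH3F1, an aldehyde dehydrogenase, differed by −0.92, −0.95 and −0.64 (SE 0.14). AT5G47330, of the palmitoyl-protein thioesterase family, was at 5.76 and 4.84 then 4.39 and 4.34 in Col-0, 7.41 and 8.01 then 6.40 and 5.77 in coi1-2, and 6.85 and 7.46 then 4.58 and 4.85 in ein3 eil1. Its differences were −0.94, −1.63 and −2.44 (SE 0.31). Its Col-0 mock arrays were far apart, and its MeJA arrays in Col-0 and in ein3 eil1 lay below the array medians. AT1G19540, related to isoflavone reductases, differed by −0.79, −0.88 and −1.68 (SE 0.18). AT2G29290, related to tropinone reductases, differed by −1.36, −0.62 and −0.85 (SE 0.18).

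A last group of 4 holds stress and iron genes. AT4G37220, of the WCOR413 cold acclimation family of membrane proteins, was at 7.82 and 7.86 then 6.27 and 6.21 in Col-0, 10.33 and 10.45 then 8.97 and 8.90 in coi1-2, and 7.42 and 7.22 then 5.42 and 5.81 in ein3 eil1. Its differences were close to each other, −1.60, −1.45 and −1.71 (SE 0.14), although every coi1-2 array lay above every array of the other genotypes. AT1G72060, a protease inhibitor-like gene, differed by −1.90, −1.78 and −0.77 (SE 0.20). AT5G22580, with a stress-responsive A/B barrel domain, differed by −1.21, −1.24 and −1.93 (SE 0.29). AT1G47400, a small peptide of the iron deficiency response, differed by −1.09, −0.91 and −0.68 (SE 0.37), and its Col-0 mock arrays, 4.97 and 6.47, were far apart. For the other 6 named members no role is given here. AT5G55620 differed by −1.68, −0.83 and −1.10 (SE 0.21), AT3G22210 by −1.50, −0.67 and −0.79 (SE 0.15) and AT3G18050 by −1.40, −0.68 and −0.99 (SE 0.14), each lowest in Col-0.

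The 3 differences were most alike in AT1G65510 (−0.73, −0.76 and −0.79), AT4G38080 and AT3G13062 (−0.76, −0.67 and −0.92), and spread most in AT3G16370, AT5G47330 and AT3G50570. Over the members the median spread between the largest and the smallest of the 3 differences was 0.64, and it ran from 0.06 to 2.05. AT1G65510 lies close to another member, AT1G65490, with 1 protein-coding gene between them in the TAIR10.1 gene table. AT1G65490 differed by −0.78, −1.42 and −1.05 (SE 0.15), with its Col-0 arrays below the array medians. Of the named members, 12 were on chromosome 1 (34.3%, against 25.7% of all named probe sets) and 5 on chromosome 4 (14.3%, against 14.6%). Chromosomes 2, 3 and 5 held 6 each (17.1%, against 16.4%, 20.4% and 22.4%). These shares were not tested. The 76 probe sets included 0 of the 1061 whose ID marks probes shared between similar transcripts.

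**Figure D3:**
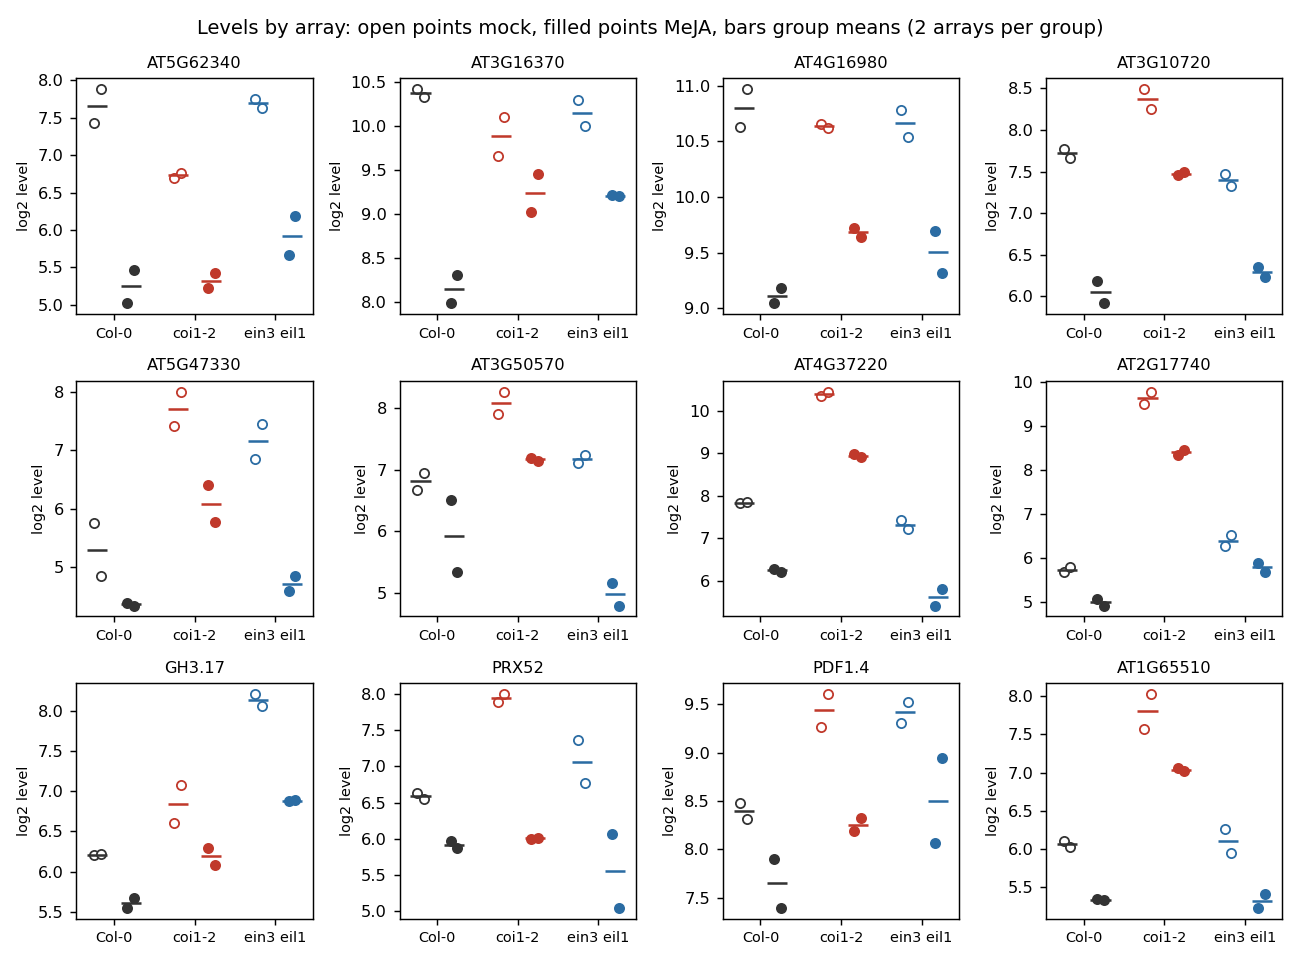
Log2 level (vertical axis) of 12 named members in every array, by genotype (horizontal axis). Open points are mock arrays, filled points MeJA arrays and bars the means of 2 arrays. MeJA points lie below mock points in each genotype, while the height of the coi1-2 pair differs between genes, from below Col-0 mock in AT5G62340 to far above it in AT2G17740.

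Around the −0.6 boundary the members passed without a gap. Just inside were GH3.17 (highest of its 3 differences −0.61), AT2G17740 (−0.61) and AT2G29290 (−0.62). Just outside were AT5G19340 (−0.60, with −0.83 and −0.87 in the mutants), AT1G80450 (−0.59) and AT5G64120 (−0.58). With no overlap of arrays in any genotype, 28 probe sets had their highest difference between −0.7 and −0.6, and 45 had it between −0.6 and −0.5.

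Whether genes lowered by MeJA in 2 genotypes were also lowered in the third was asked with arrays that had not entered the choice. Of 144 probe sets that met the conditions in coi1-2 and ein3 eil1, 124 were below 0 in Col-0 and 70 were called lower (48.6%), against 3.05% of all probe sets. A call here is an adjusted p below 0.05 from limma, with Benjamini-Hochberg adjustment over the whole table. Their median Col-0 difference was −0.64, and 1 was called higher. Of 227 probe sets chosen in Col-0 and ein3 eil1, 206 were below 0 in coi1-2 and 52 were called lower (22.9%, against 0.998% of all), with a median of −0.45. Of 123 chosen in Col-0 and coi1-2, 110 were below 0 in ein3 eil1 and 67 were called lower (54.5%, against 2.59% of all), with a median of −0.82. Each of these groups holds the 76 members, which by the rule met the conditions in the remaining genotype too. The others, 68, 151 and 47 probe sets, did not meet them there, and 3, 1 and 1 of those were called lower. A common estimate of the spread enters the calls from all 12 arrays. With only the 4 arrays of the genotype measured, 63, 61 and 46 were called lower, against 509, 300 and 230 of all 22746 probe sets. Above the median level of all probe sets, 68 of 126, 54 of 208 and 70 of 104 chosen ones were called lower. Of all 11373 probe sets there, 606, 178 and 601 were. The share of all probe sets below 0 was not counted, and their median differences were −0.03, −0.00 and 0.01.

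Single arrays moved these counts. The 52 called in coi1-2 became 29 or 26 when its mock array 1 or 2 was left out, and 19 or 28 when its MeJA array 1 or 2 was. The 67 called in ein3 eil1 became 36 once its mock array 1 was dropped. The 70 called in Col-0 stayed between 49 and 76. The calls over all probe sets moved as well, in both directions. In coi1-2 they went from 227 to 96 without its MeJA array 1, in ein3 eil1 from 590 to 170 without its mock array 1, and in Col-0 from 693 to 403 without its mock array 2 and to 826 without either ein3 eil1 MeJA array.

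**Figure D4:**
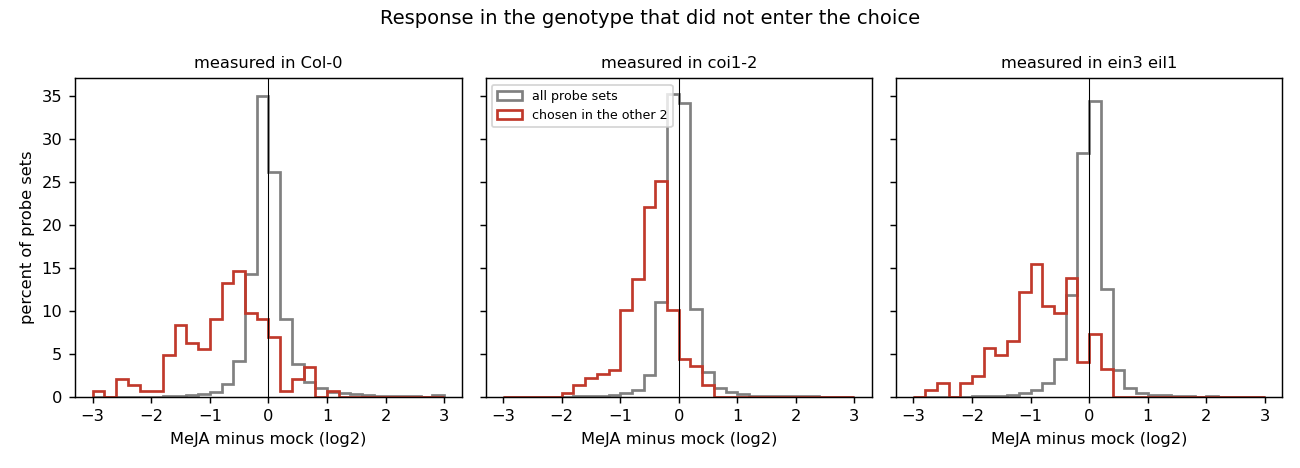
Distribution of the MeJA minus mock difference (log2, horizontal axis) as a percent of probe sets (vertical axis), in the genotype named above each panel. Grey lines are all 22746 probe sets, and red lines are the 144, 227 and 123 probe sets chosen in the other 2 genotypes, with values beyond the axis counted in the end bins. The red distributions lie to the left, with medians of −0.64, −0.45 and −0.82.

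The members differed between the genotypes in level. The rule compares treatments within a genotype and set no threshold on the difference between genotypes in the mean of mock and MeJA. That mean is built from the same arrays, however, so it is not independent of the choice. The conditions were met least often in coi1-2 (391 probe sets), where 42 members had their smallest difference. Whether the choice favoured probe sets with a high level in coi1-2 was not tested, so the shares below are a description. The condition that arrays do not overlap left out no probe set, since 76 met the rule without it too. Of the 76 members, 45 were higher in coi1-2 than in Col-0 (59.2%, by the same limma call), where 10.1% of all probe sets were, and 2 were lower (2.63%, against 8.52%). The median difference of the members was 0.54 (log2), against −0.02 over all, and 61 of 76 lay above 0. Of the 7 signalling and defence members 7 were higher, of the 10 wall members 6, of the 3 GDSL members 2, of the 5 with enzyme roles 4, of the 4 stress and iron members 4 and of the 6 with no role given 3. Of the 41 without a gene name 19 were higher, and the 2 called lower were 1 with no role given and 1 without a name. The groups were not compared with each other by a test.

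Of the named members AT2G17740 differed most, 3.66 ± 0.10 (log2, limma SE, 4 arrays per genotype, limma adjusted p = 1.91e-09), a 12.6-fold higher level. AT4G37220 was 2.62 ± 0.10 higher (adjusted p = 1.13e-08), AT2G42360 2.11 ± 0.12 (adjusted p = 1.98e-07), AT1G64380 2.10 ± 0.15 and AT5G47330 2.07 ± 0.22 (adjusted p = 3.04e-05). For these 5 genes every coi1-2 array lay above every Col-0 array of the same treatment. Every Col-0 array of AT1G64380 lay below the lowest array median, 5.22. So did both Col-0 MeJA arrays of AT2G17740, AT2G42360 and AT5G47330, and Col-0 mock array 2 of AT5G47330. The size of the difference from Col-0 is less certain for these genes. Of named members AT1G65510 followed at 1.72 ± 0.11. Those called lower were AT3G22210 (−0.72 ± 0.11, adjusted p = 0.000471) and a probe set with no gene name (−0.48 ± 0.12, adjusted p = 0.0109). The count of 2 became 4 when array 1 of either Col-0 treatment was dropped, and 1 when MeJA array 2 of Col-0 or MeJA array 1 of coi1-2 was.

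Among wall members, AT2G16630 (1.42 ± 0.14, adjusted p = 1.62e-05), AT1G62770 (1.26 ± 0.13), AT3G50570 (1.26 ± 0.20), AT3G10720 (1.04 ± 0.10) and AT4G38080 (0.80 ± 0.15) were higher in coi1-2. PRX52 was 0.72 ± 0.19 higher (adjusted p = 0.0171), a call that did not survive dropping either coi1-2 MeJA array or array 2 of the other 3 groups compared. AT5G62340 (−0.43 ± 0.14, adjusted p = 0.0592), AT1G04680 (0.23 ± 0.12, adjusted p = 0.233), AT4G16980 (0.20 ± 0.11, adjusted p = 0.263) and AT1G70985 (−0.06 ± 0.14, adjusted p = 0.835) did not pass. The 4 genes of pectin-linked families thus did not share 1 pattern between genotypes: AT1G62770 and AT3G10720 were called higher and the other 2 were not called.

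By treatment, both coi1-2 arrays lay above both Col-0 arrays for 46 members under mock (23.7% of all probe sets) and for 57 with MeJA (24.8%). They lay below for 14 (28.6%) and 2 (25.5%). Levels of 1 treatment are in part what chose the members, so these counts are given as a description.

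In ein3 eil1 the members went both ways against Col-0. Of 76, 12 were higher (15.8%, against 7.31% of all probe sets) and 19 lower (25%, against 4.89%), and the median difference was −0.01, the same as over all. This comparison and that of coi1-2 share the Col-0 arrays, so their values are set side by side only. AT1G65490 was the highest at 2.24 ± 0.11 (adjusted p = 6.27e-08), where coi1-2 had 1.18 ± 0.11. It was at 4.57 and 4.90 then 3.93 and 3.97 in Col-0, 6.06 and 6.40 then 4.77 and 4.85 in coi1-2, and 7.18 and 7.02 then 6.13 and 5.98 in ein3 eil1. Its ein3 eil1 MeJA arrays thus lay above its Col-0 mock arrays. Every Col-0 array of AT1G65490 lay below the lowest array median, 5.22, so the size of its difference from Col-0 is less certain. The Col-0 MeJA arrays of AT5G47330, AT2G42360 and AT1G47400, named next, lay below that median too. GH3.17 was 1.60 ± 0.11 higher (adjusted p = 1.11e-06; 0.61 ± 0.11 in coi1-2), AT5G47330 1.11 ± 0.22, PDF1.4 0.94 ± 0.18 (adjusted p = 0.00337; 0.82 ± 0.18 in coi1-2) and AT2G42360 0.75 ± 0.12. AT1G47400 was 1.32 ± 0.26 higher (adjusted p = 0.00471); its coi1-2 value, 0.93 ± 0.26, lost its call when Col-0 mock 1, Col-0 MeJA 2 or array 2 of either coi1-2 treatment was dropped.

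The named members below Col-0 in ein3 eil1 were AT5G55620 (−1.34 ± 0.15, adjusted p = 4.98e-05), AT2G29290 (−1.24 ± 0.13, adjusted p = 3.06e-05), AT4G37220 (−0.57 ± 0.10, adjusted p = 0.00227) and ALDH3F1 (−0.42 ± 0.10, adjusted p = 0.0149). The ALDH3F1 call was lost when any of 4 arrays was dropped, namely mock 1 or MeJA 2 of Col-0 and array 2 of either ein3 eil1 treatment. The other 15 of the 19 had no gene name. Of the 10 wall members 1 was called, AT2G16630 (0.60 ± 0.14, adjusted p = 0.0134). That call was lost when array 2 of either Col-0 treatment or mock array 2 of ein3 eil1 was dropped. By treatment, both ein3 eil1 arrays lay above both Col-0 arrays for 23 members under mock (23.2% of all probe sets) and 25 with MeJA (21.9%), and below for 32 (29.5%) and 29 (20.1%).

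Set directly against coi1-2, ein3 eil1 had 48 members lower (63.2%, against 12.4% of all probe sets) and 7 higher (9.21%, against 12.4%), with a median of −0.74 against −0.00 over all. For each probe set this value is the difference between the comparisons with Col-0 above, from the same mutant arrays, so it is not a separate result. AT4G37220 (−3.2 ± 0.10, adjusted p = 4.04e-10) and AT2G17740 (−2.93 ± 0.10, adjusted p = 7.94e-10) were furthest apart among named members, followed by AT5G55620 (−2.43 ± 0.15), AT1G64380 (−1.76 ± 0.15), AT1G65510 (−1.71 ± 0.11) and AT4G08850 (−1.63 ± 0.11). The named members that were higher in ein3 eil1 were AT1G65490 (1.05 ± 0.11), GH3.17 (0.99 ± 0.11, adjusted p = 2.38e-05), AT3G22210 (0.82 ± 0.11) and AT5G62340 (0.78 ± 0.14, adjusted p = 0.00139).

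Members have higher levels than most probe sets, and brighter probe sets are called more often. Among the 11373 probe sets above the median level, which hold 73 members, 45 members were higher in coi1-2 than in Col-0, where 17.6% of those probe sets were, and 4 lower (15.2%). In ein3 eil1 against Col-0 it was 12 higher (11.9%) and 19 lower (9.17%), and against coi1-2 it was 6 higher (20%) and 48 lower (21.8%). This background matches the members by mean level over all arrays only, not by level within each genotype.

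**Figure D5:**
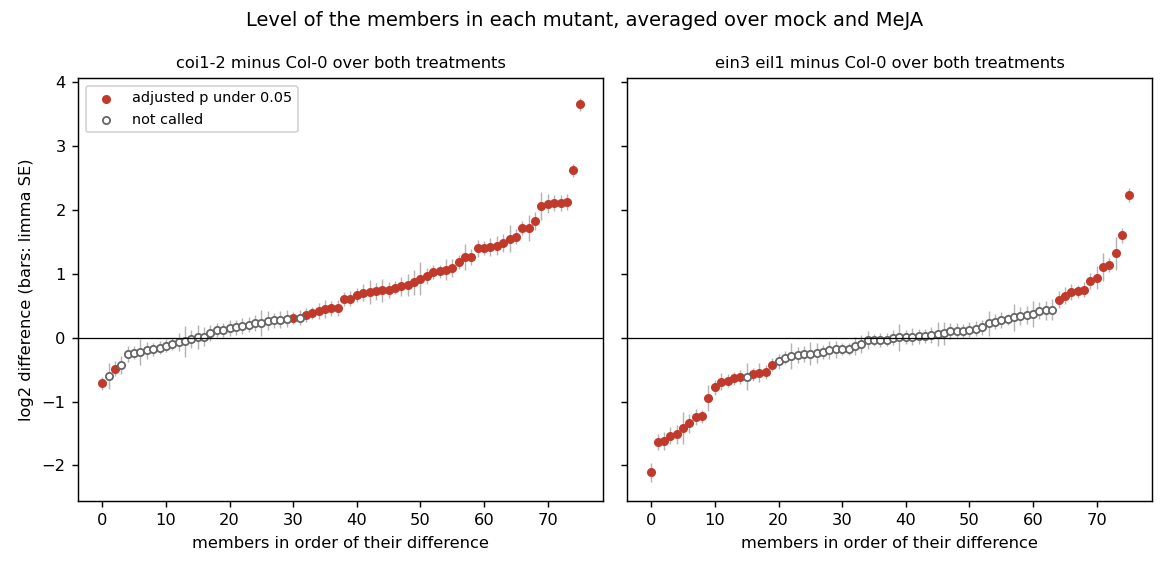
Difference in level from Col-0, averaged over mock and MeJA (log2, vertical axis, bars are limma SEs), of each of the 76 members in order of its value (horizontal axis), for coi1-2 on the left and ein3 eil1 on the right. Filled points passed an adjusted p of 0.05: 45 members above and 2 below 0 in coi1-2, and 12 above and 19 below in ein3 eil1.

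Lists of genes from pathways tied to growth and defence were compared with the members. Of 12 auxin response and transport genes 1 was a member, GH3.17. In this list, which includes GH3.17 and so a gene whose MeJA values the rule used, limma called 1 gene lower with MeJA in Col-0, 2 in coi1-2 and 2 in ein3 eil1, against 3.05%, 0.998% and 2.59% of all probe sets. It called 0, 1 and 1 higher, where 1032, 351 and 372 of all 22746 were. The list's medians were −0.10, −0.12 and −0.05. Of 3 genes whose symbol matched the peroxidase list 1 was a member, PRX52, and 1 of the other two, PRXIIF, is a peroxiredoxin of another family. The lists of 6 pectin enzyme genes, 13 structural wall and polysaccharide genes, 26 cytochrome P450 genes, 9 transcription factors of large families, 6 cell cycle and histone genes, 5 mineral transporters, 2 aquaporins and 2 cuticle genes held 0 members. These lists were taken by symbol, so the wall genes above, known by locus code, are not in them.

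Whole seedlings hold many tissues, and in such samples fewer cells of a type and less RNA per cell cannot be told apart. The 8 measured photosynthesis genes had a mean level of 11.46 to 11.82 in all 12 arrays, and MeJA changed 0 of 8 by limma's call in any genotype. Over both treatments, 2 of the 8 were called lower in coi1-2 than in Col-0 (list median −0.13) and 1 of 8 in ein3 eil1 (list median −0.17), with 0 called higher in either. Of all probe sets, 8.52% were called lower in coi1-2 and 4.89% in ein3 eil1. Of the root hair markers 2 were measured by name, EXPA7 and EXPA18. Their mean level was 7.49 and 7.36 in Col-0 mock and 7.08 and 7.18 with MeJA, 6.38 and 6.57 then 6.66 and 6.88 in coi1-2, and 7.35 and 7.02 then 6.48 and 6.14 in ein3 eil1. Both were called lower in coi1-2 than in Col-0 over both treatments, and 1 of 2 was in ein3 eil1. With MeJA 1 of 2 was called lower in ein3 eil1, where 2.59% of all probe sets were. A list of 2 genes is too short to read such shares from. The part of these markers in the members' values was not tested. The root tissue markers were not analysed here.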

How the data were processed

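The authors deposited log2 expression values for 22810 probe sets. The submitters' processing notes name RMA, Partek and the Affymetrix Expression Console, while versions, order and genome build are not given in the sources used here. The values are treated as RMA levels. That method gives all arrays nearly 1 distribution, which hides a shift common to most transcripts. Array medians were 5.22 to 5.39. The labels cite 100 ng of total RNA per sample.

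The 64 control probe sets were left out. Of 22746, 13513 had 1 gene name (13436 matched the TAIR10.1 gene table), 503 several and 8730 none here. The log2 values were fitted in limma 3.58.1 (R 4.3.3) as 6 group means over 12 arrays (6 residual and 6.28 prior degrees of freedom) and adjusted by Benjamini-Hochberg over all probe sets. The fit was tested on simulated data. The members, lists, contrasts and naming rule were chosen with earlier results of these data known. Named were the 20 named members with the lowest mean difference, up to 6 at each end of each genotype contrast, up to 4 per list, 3 on each side of the boundary and the 3 most and least even. AT4G08850 and GH3.17 are among these, and AT2G04570, AT5G47610 and AT2G41090 were added after their values were seen. Python 3.11.15 with pandas 2.3.3 and matplotlib 3.10.9 made tables and figures. Promoter and protein sequences were not used here. Alternatives are in the closing section.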

Additional observations from a re-analysis of the deposited data

How the results depend on the processing

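The count of members changed most with the rule itself: 121 at −0.5, 29 at −0.8 and 10 at −1. Choosing again without each array gave 70 to 94 members and kept 59 to 73 of the 76, with 59 kept without coi1-2 mock replicate 2 and 64 without coi1-2 MeJA replicate 1. Quantile normalization and median centring gave 79 and 78, of which 74 and 70 were among the 76. The 2 members called lower in coi1-2 than in Col-0 became 4 with median centring and with either filter on low levels, 1 at a threshold of 0.01, and 1 to 4 without single arrays. The 45 called higher ranged from 35 to 46 over all alternatives. Against Col-0, the 12 higher and 19 lower members in ein3 eil1 ranged from 11 to 15 and from 17 to 22, and the 7 higher and 48 lower against coi1-2 from 6 to 7 and from 44 to 49. Of the probe sets chosen in 2 genotypes, those called lower in coi1-2 numbered 26 at a threshold of 0.01 and 19 to 61 without single arrays, those in ein3 eil1 36 to 66 and those in Col-0 49 to 76. Without coi1-2 MeJA replicate 1, which gave the 19, 96 of all probe sets were called lower in coi1-2, and without ein3 eil1 mock replicate 1, which gave the 36, 170 in ein3 eil1. At the threshold of 0.01, 108 of all probe sets were called lower in coi1-2.

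With the replicate number as a block (replicate block), 44 members were higher and 3 lower in coi1-2, against 2287 and 1930 of all 22746 probe sets. The calls in the remaining genotype were 71, 54 and 66, against 684, 231 and 559 of all. The labels do not say that numbers pair arrays, and same-numbered deviations correlated between groups at −0.22 to 0.23 over 15 pairs. Of 58 called gene differences between genotypes, 7 lost their call in at least 1 alternative and 0 reversed. One of them, ALDH3F1 in coi1-2 against Col-0, lost it in 14. With 2 arrays per group, small differences are beyond the precision of these data.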

Other observations

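The 41 members without a gene name and the 35 named ones are set side by side here, with no test of the difference between them. Of the 41, 19 were called higher and 1 lower in coi1-2 than in Col-0, with a median of 0.29, against 26 and 1 of the 35 with a median of 0.87. Of all probe sets, 10.1% were called higher and 8.52% lower in that comparison. In ein3 eil1 against Col-0, 4 of the 41 were higher and 15 lower, against 8 and 4 of the 35, where 7.31% of all probe sets were higher and 4.89% lower. The brightest of all members is one of them, and its Col-0 arrays read 12.31 and 12.5 then 10.73 and 10.72, its coi1-2 arrays 12.78 and 12.54 then 11.41 and 11.33, and its ein3 eil1 arrays 10.92 and 10.61 then 8.51 and 7.79 (mock, then MeJA). Its difference from Col-0 in ein3 eil1 over both treatments was −2.11 ± 0.14 (limma adjusted p = 9.46e-07), and its MeJA minus mock difference there, −2.61, was the lowest of any member in that genotype. No ein3 eil1 array reached a Col-0 array of the same treatment.

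Chosen on the replicate 1 arrays alone, by the size of the difference and the order of mock and MeJA, 86 probe sets met the rule, and 52 of them were among the 76. The 76 were chosen with these same arrays too, so that overlap is in part set by the choice. In the replicate 2 arrays their median differences were −0.97 in Col-0, −0.67 in coi1-2 and −0.97 in ein3 eil1, against −0.04, −0.00 and −0.00 over all probe sets. Of the 86, 80 were below 0 in all 3 genotypes and 35 reached −0.6 in all 3. Chosen on replicate 2, 83 met it, and in replicate 1 their medians were −0.99, −0.75 and −1.11, against −0.02, −0.00 and 0.01 over all, with 77 below 0 and 35 at −0.6 or lower in all 3. The replicate numbers only name the arrays here. The shares of all probe sets below 0, or at −0.6 or lower, in all 3 genotypes were not counted, so those counts are a description. The mirror rule, higher with MeJA by the same size in all 3 genotypes and with no overlap, was met by 180 probe sets, against 76 for lower.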
